A study of Mus musculus with 22 samples.

Results

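In all, 8 genes of nitric oxide, arginine and itaconate metabolism were followed in mouse bone marrow-derived macrophages (BMDM), a primary cell obtained by differentiating marrow cells with M-CSF. The genes were chosen by name, and every array probe whose RefSeq accession belongs to 1 of them was used. These were Nos2 (NM_010927), Gch1 (NM_008102), Slc7a2 (NM_007514), Ass1 (NM_007494), Asl (NM_133768), Arg2 (NM_009705), Odc1 (NM_013614) and Acod1 (NM_008392), the last also named Irg1. They are 8 of the 22384 genes tested and have 12 of the 28103 probes kept, and all 12 probes were well above background on all 22 arrays.

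Donor animals were wild type (wt), deficient in MK2 (MK2-/-), a kinase activated by p38 MAPK, or deficient in both MK2 and its relative MK3 (MK2/3-/-). All mice were labelled as male C57BL/6 animals of 10 to 14 weeks. The cells stayed for 360 min in medium or in medium with 100 ng/ml lipopolysaccharide (LPS), an outer membrane component of Gram-negative bacteria, and RNA of each culture was hybridised to its own 1-colour array. There were 4 arrays of medium-treated and 3 of LPS-treated wt, 4 and 4 of MK2-/-, and 3 and 4 of MK2/3-/- BMDM. A group lacking MK3 alone was not analysed here.

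Inducible nitric oxide synthase, encoded by Nos2, makes nitric oxide and citrulline from arginine and needs the cofactor tetrahydrobiopterin, the synthesis of which begins with the enzyme encoded by Gch1. Arginine enters the macrophage through cationic amino acid transporters such as that encoded by Slc7a2, and citrulline is turned back into arginine by argininosuccinate synthase (Ass1) and argininosuccinate lyase (Asl). Arginase 2 (Arg2), a mitochondrial enzyme, competes for arginine and yields ornithine, which ornithine decarboxylase (Odc1) takes into the polyamines, whereas the enzyme encoded by Acod1 makes itaconate from cis-aconitate and is a marker of macrophages that have met LPS.

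For 4 of the 8 genes the RefSeq promoter table of the assembly GRCm38.p6 held an entry, and the 250 bases before the annotated start are given here because 3 of these genes rose steeply and 1 moderately with LPS. Capitals mark matches to any of 8 motifs searched on both strands. The motifs were the NF-kB consensus, the interferon-stimulated response element ISRE, the gamma-activated site GAS spelled as TTCNNNGAA, the AP-1 site as TGANTCA, the cyclic AMP response element CRE as TGACGTCA, the C/EBP site as TTNNGNAAT, the E-box as CACGTG and the TATA box as TATAAA. ISRE was searched as GAAA followed after any 2 bases by GAAA. The Gch1 promoter lies at chr14:47189414-47189663 on the minus strand, that of Ass1 at chr2:31470020-31470269 on the plus strand, that of Odc1 at chr12:17544623-17544872 on the plus strand and that of Acod1 at chr14:103046762-103047011 on the plus strand.
Gch1: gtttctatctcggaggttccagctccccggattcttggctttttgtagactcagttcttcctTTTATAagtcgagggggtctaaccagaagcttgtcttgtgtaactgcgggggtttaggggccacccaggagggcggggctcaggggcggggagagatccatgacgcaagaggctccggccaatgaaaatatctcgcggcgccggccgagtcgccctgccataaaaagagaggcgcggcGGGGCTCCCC
Ass1: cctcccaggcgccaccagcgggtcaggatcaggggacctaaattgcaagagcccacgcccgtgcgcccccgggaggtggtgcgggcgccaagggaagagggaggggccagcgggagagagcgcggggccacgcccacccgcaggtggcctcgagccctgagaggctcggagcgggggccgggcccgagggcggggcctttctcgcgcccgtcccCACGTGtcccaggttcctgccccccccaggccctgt
Odc1: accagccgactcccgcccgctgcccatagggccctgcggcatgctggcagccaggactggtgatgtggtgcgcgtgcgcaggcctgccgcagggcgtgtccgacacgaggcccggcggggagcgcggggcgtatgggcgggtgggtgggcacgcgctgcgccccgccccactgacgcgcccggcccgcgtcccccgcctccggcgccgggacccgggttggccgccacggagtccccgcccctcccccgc
Acod1: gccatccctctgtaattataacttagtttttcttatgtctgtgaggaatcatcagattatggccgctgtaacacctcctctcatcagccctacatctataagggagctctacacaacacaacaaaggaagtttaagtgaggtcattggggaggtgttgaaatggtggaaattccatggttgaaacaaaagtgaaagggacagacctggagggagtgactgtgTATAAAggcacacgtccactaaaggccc
Counted back from the start, the Gch1 promoter held an NF-kB match at -10 to -1 and a TATA match on the opposite strand at -188 to -183, Ass1 an E-box at -36 to -31, and Acod1 a TATA match at -28 to -23. Odc1 had no match in this window. Of the 32851 mouse promoters of this length, 3.9% held the NF-kB motif, 12.4% TATA, 6.02% the E-box, 2.98% ISRE, 7.02% GAS, 6.75% AP-1, 1.55% CRE and 10.2% C/EBP. A match describes the letters only.

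Several features of the arrays bear on these genes. Each genotype had a slide and a scan of its own. In a direct comparison of genotypes, genotype and slide cannot be told apart, whereas LPS and medium share a slide within each genotype. An additive slide effect cancels in the difference of LPS responses. Mapkapk2, which encodes MK2, lay at a log2 signal of 8.34 to 9.01 in medium and 10.86 to 11.95 under LPS in both mutants, below the wt ranges of 10.77 to 12.39 and 14.28 to 15.33. Mapkapk3, which encodes MK3, lay at 7.65 to 8.55 under LPS in MK2/3-/-, compared with 11.92 to 12.57 in the other genotypes, and in medium at 10.94 to 11.40, compared with 12.39 to 13.42. Replicate 3 of the medium-treated and replicate 3 of the LPS-treated MK2-/- cultures had a mean log2 signal of Y-linked genes of 2.33 and 2.07, compared with 6.86 to 8.82 on the other 20 arrays, which goes against their label as male, and the latter array also had 2927 spots marked as outliers, compared with at most 261 elsewhere. Calls of the 8 genes and of the wider pathway lists in MK2-/- are therefore also given without both. Of 7 macrophage markers on the array, all 7 were well above background on every array, with a summed log2 level of 18.8 to 19.5. Of the markers of other cells, 2 of 4 for neutrophils and precursors, 1 of 4 for dendritic cells, 2 of 4 for T cells, 1 of 3 for B cells, 0 of 2 for mast cells, 1 of 3 for stromal and 2 of 2 for endothelial cells were well above background on every array. The stromal one, Col1a1, had group means of 12.41 and 12.55 in wt and 8.86 to 9.51 in both mutants. Dcn of the same list went the other way under LPS (6.32 in wt, 8.01 in MK2-/- and 8.17 in MK2/3-/-). Pdgfra, the third, was well above background on only 2 arrays. The summed stromal level under LPS overlapped, at 11.72 to 13.57 in wt, 8.52 to 12.15 in MK2-/- and 8.77 to 13.17 in MK2/3-/-. In bulk RNA, fewer cells of a type and less RNA per cell cannot be told apart.

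In wt BMDM, 7 of the 8 genes rose with LPS and 1, Asl, fell. A gene was called at an adjusted p below 0.05 in limma. Of all 22384 genes, 42.1% were called in this comparison, 18.6% as higher and 23.5% as lower. The median difference, LPS minus medium, was 3.95 on the log2 scale over the 8 genes and -0.04 over all genes. In MK2-/- BMDM all 8 were again called, 7 higher and 1 lower (44.6% of all genes, 17.5% higher and 27.1% lower), with a median of 3.99. In MK2/3-/- BMDM 7 of 8 were called, 6 higher and 1 lower (48.2% of all genes, 20.2% higher and 27.9% lower), with a median of 3.70, and the gene not called was Arg2. Without both low-Y arrays all 8 genes were still called in MK2-/-, at 7.33 for Nos2, 5.16 for Gch1, 6.12 for Slc7a2, 2.71 for Ass1, -0.77 for Asl, 2.72 for Arg2, 1.21 for Odc1 and 7.73 for Acod1.

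**Figure D1:**
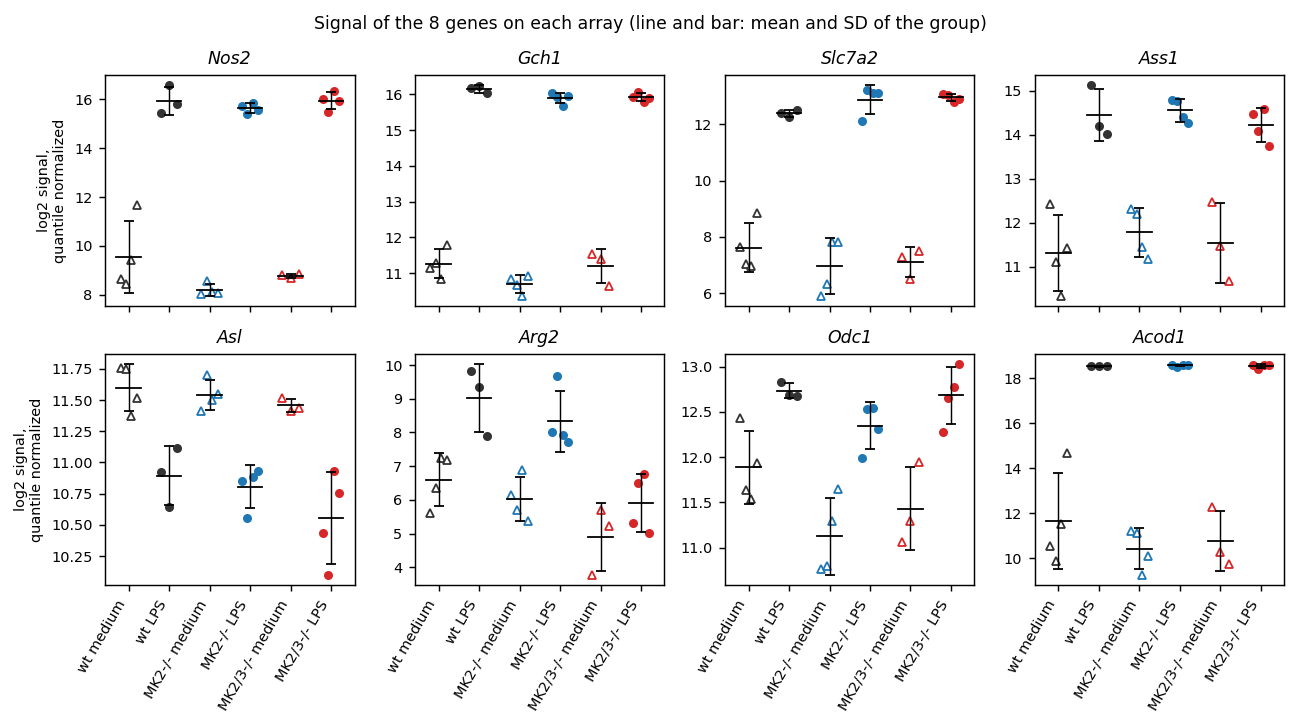
Quantile-normalised log2 signal (vertical axes) of the 8 genes on each of the 22 arrays, by genotype and treatment (horizontal axes); open triangles are medium-treated and filled circles LPS-treated cultures, and lines with bars give the mean and SD. LPS-treated arrays lie above medium-treated ones for Nos2, Gch1, Slc7a2, Ass1 and Acod1, with no overlap, below them for Asl, and the Arg2 level under LPS is lowest in MK2/3-/- (5.02 to 6.78).

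Nos2 had 1 probe, printed in 2 spots. On the medium-treated arrays its log2 signal was 8.63, 8.46, 9.42 and 11.67 in wt, 8.03, 8.57, 8.11 and 8.08 in MK2-/-, and 8.80, 8.67 and 8.84 in MK2/3-/-. Under LPS it was 15.44, 16.58 and 15.80 in wt, 15.71, 15.38, 15.86 and 15.58 in MK2-/-, and 16.01, 15.49, 16.32 and 15.95 in MK2/3-/-. Treated and untreated arrays did not overlap in any genotype, and the LPS-treated genotypes overlapped each other. The synthase transcript rose by 6.40 (SE 0.51, adjusted p 1.24e-08) in wt, or 84.3-fold, by 7.44 (SE 0.47, adjusted p 3.14e-10) in MK2-/- and by 7.17 (SE 0.51, adjusted p 1.62e-09) in MK2/3-/-, on the log2 scale. Replicate 4 of medium-treated wt, at 11.67, lay above the other 3 (8.46 to 9.42), and without it the rise in wt was 7.11. The 2 Nos2 spots of LPS-treated wt replicate 1 read 14.15 and 16.73, while the spots of every other array differed by an SD of at most 0.475, and without this array the rise in wt was 6.65.

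Gch1, which feeds the cofactor of the synthase, behaved likewise. Its log2 signal rose from 11.27 ± 0.40 (SD, n = 4) to 16.15 ± 0.11 (SD, n = 3) in wt, from 10.70 ± 0.25 to 15.90 ± 0.15 (SD, n = 4 each) in MK2-/-, and from 11.19 ± 0.48 (SD, n = 3) to 15.91 ± 0.11 (SD, n = 4) in MK2/3-/- BMDM. All medium-treated arrays lay between 10.36 and 11.80 and all LPS-treated ones between 15.68 and 16.24. The rises were 4.88 (SE 0.22, adjusted p 4e-11), 5.20 (SE 0.21, adjusted p 4.4e-12) and 4.72 (SE 0.22, adjusted p 3.25e-11). A second Gch1 probe gave smaller rises of 3.91, 3.48 and 3.37, each called, so the probes agree in direction and differ in size.

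Slc7a2, an arginine transporter, stood at 7.63, 7.03, 6.98 and 8.83 on the medium-treated wt arrays and at 12.41, 12.25 and 12.50 on the LPS-treated ones. In MK2-/- the values were 5.91, 6.33, 7.84 and 7.82 in medium and 12.11, 13.21, 13.09 and 13.09 under LPS, and in MK2/3-/- 7.30, 6.51 and 7.51 against 13.06, 13.05, 12.79 and 12.90. Every LPS-treated array lay above every medium-treated one, and replicate 4 was again the highest of the medium-treated wt arrays. The transporter rose by 4.77 (SE 0.47, adjusted p 1.7e-07), 5.90 (SE 0.43, adjusted p 2.01e-09) and 5.84 (SE 0.47, adjusted p 7.04e-09) in wt, MK2-/- and MK2/3-/-, which is 27.3-, 59.8- and 57.4-fold. Without replicate 4 of medium-treated wt the rise in wt was 5.17.

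The 2 enzymes that rebuild arginine from citrulline moved in opposite directions. Ass1 rose from 11.33 ± 0.86 (SD, n = 4) to 14.45 ± 0.60 (SD, n = 3) in wt, from 11.78 ± 0.56 to 14.55 ± 0.27 (SD, n = 4 each) in MK2-/-, then from 11.54 ± 0.90 (SD, n = 3) to 14.22 ± 0.38 (SD, n = 4) in MK2/3-/- BMDM. These are rises of 3.12 (SE 0.45, adjusted p 1.72e-05), 2.77 (SE 0.42, adjusted p 1.86e-05) and 2.68 (SE 0.45, adjusted p 6.17e-05), and a second Ass1 probe gave 3.22, 2.80 and 2.87. Asl, the next enzyme of the cycle, read 11.76, 11.75, 11.37 and 11.51 in medium-treated and 10.92, 10.64 and 11.11 in LPS-treated wt. In MK2-/- it read 11.41, 11.70, 11.50 and 11.55 in medium and 10.86, 10.55, 10.89 and 10.93 under LPS, and in MK2/3-/- 11.52, 11.41 and 11.44 against 10.44, 10.10, 10.93 and 10.76. All 11 LPS-treated arrays were below all 11 medium-treated ones. On the log2 scale Asl fell by 0.71 (SE 0.19, adjusted p 0.00486) in wt, by 0.73 (SE 0.17, adjusted p 0.00165) in MK2-/- and by 0.90 (SE 0.19, adjusted p 4.92e-04) in MK2/3-/-, so that its level in medium was 1.63, 1.66 and 1.87 times that under LPS. Scaling each array to its 75th percentile, which moved the median of all genes from -0.04 to 0.30 in wt, from -0.01 to 0.28 in MK2-/- and from 0.01 to 0.29 in MK2/3-/-, kept the direction and the call of all 3 falls.

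**Figure D2:**
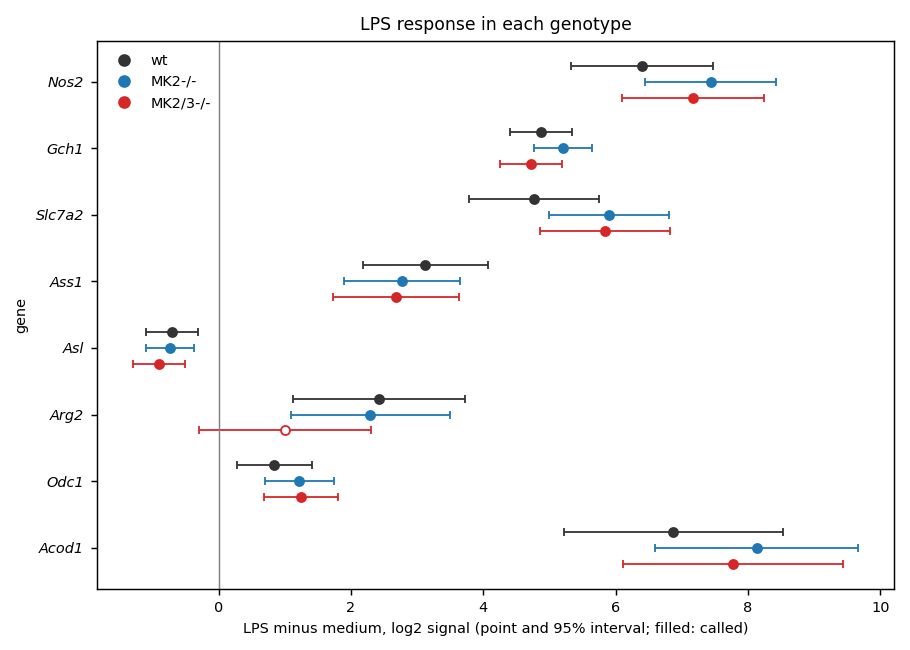
LPS response of the 8 genes: the horizontal axis is the difference in log2 signal, LPS minus medium, with its 95% interval, and colours are the genotypes; filled points were called. Acod1, Nos2, Slc7a2 and Gch1 rose by between 4.72 and 8.13 in all genotypes, Asl fell, and the interval of Arg2 in MK2/3-/- (-0.30 to 2.30) includes 0.

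Arg2, the arginase of mitochondria, showed the one difference between genotypes among the 8 genes that was called. In medium its log2 signal was 5.61, 6.34, 7.25 and 7.20 in wt, 6.16, 5.70, 6.90 and 5.37 in MK2-/-, and 3.77, 5.70 and 5.24 in MK2/3-/-. Under LPS it was 9.83, 9.35 and 7.90 in wt, 8.01, 9.67, 7.91 and 7.71 in MK2-/-, and 5.32, 6.50, 6.78 and 5.02 in MK2/3-/-. All 4 LPS-treated MK2/3-/- arrays lay below all 7 of the other genotypes and within or below the range of medium-treated wt arrays. LPS raised Arg2 by 2.43 (SE 0.62, adjusted p 0.00376), or 5.39-fold, in wt and by 2.29 (SE 0.57, adjusted p 0.00268), or 4.91-fold, in MK2-/-. In MK2/3-/- the difference was 1.00 (SE 0.62, adjusted p 0.199), with a 95% interval from -0.30 to 2.30.

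Under LPS, Arg2 in MK2/3-/- BMDM differed from wt by -3.13 (SE 0.62, adjusted p 0.00172), so that wt stood 8.72-fold higher, and from MK2-/- by -2.42 (SE 0.57, adjusted p 0.00881), so that MK2-/- stood 5.37-fold higher. MK2-/- and wt differed by -0.70 (SE 0.62, adjusted p 0.476), with a 95% interval from 0.25 to 1.51 times the wt level. In medium the MK2/3-/- arrays also lay lower, by -1.70 from wt (SE 0.62, adjusted p 0.160) and by -1.13 from MK2-/- (SE 0.62, adjusted p 0.421), neither of which was called. The LPS response of MK2/3-/- was -1.43 from that of wt (SE 0.88, adjusted p 0.605, 95% interval -3.26 to 0.41), so a lower response, as opposed to a lower level, was not shown. Leaving out 1 array at a time gave -3.69 to -2.72 against wt and -2.72 to -1.98 against MK2-/-, all called, and without both low-Y arrays the second value was -2.56 (adjusted p 0.0118). The methods' t-test gave the same differences with adjusted p 0.0924 and 0.113 after Benjamini-Hochberg adjustment. The summed log2 level of neutrophil and precursor markers was 11.7 to 12.3 on the LPS-treated MK2/3-/- arrays, compared with 11.2 to 11.5 in wt and 10.9 to 11.6 in MK2-/-. Of its genes, Elane was likewise highest in MK2/3-/- (group means 11.61, then 11.10 in wt and 10.77 in MK2-/-), as was Camp (9.85, 8.56 and 8.58). Mpo went the other way (4.27, 5.15 and 5.05), and Ngp lay between the others (5.74, 5.57 and 6.17). The T-cell sum was 12.69 to 13.54 in MK2/3-/-, compared with 12.41 to 12.52 in wt and 12.40 to 13.08 in MK2-/-. Cd4 was highest in MK2/3-/- (group means 12.75, then 11.69 in wt and 11.69 in MK2-/-). Cd3e was highest in MK2-/- (11.82, then 11.51 in MK2/3-/- and 11.12 in wt). Cd8a had 6.20 in MK2/3-/-, 6.17 in wt and 3.78 in MK2-/-, and Cd3g was well above background on only 2 arrays. The B-cell sum was 7.65 to 7.99 in MK2/3-/-, compared with 6.97 to 7.79 in wt and 6.80 to 7.53 in MK2-/-. The part of these markers in the difference of Arg2, and that of Col1a1, was not tested.

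**Figure D3:**
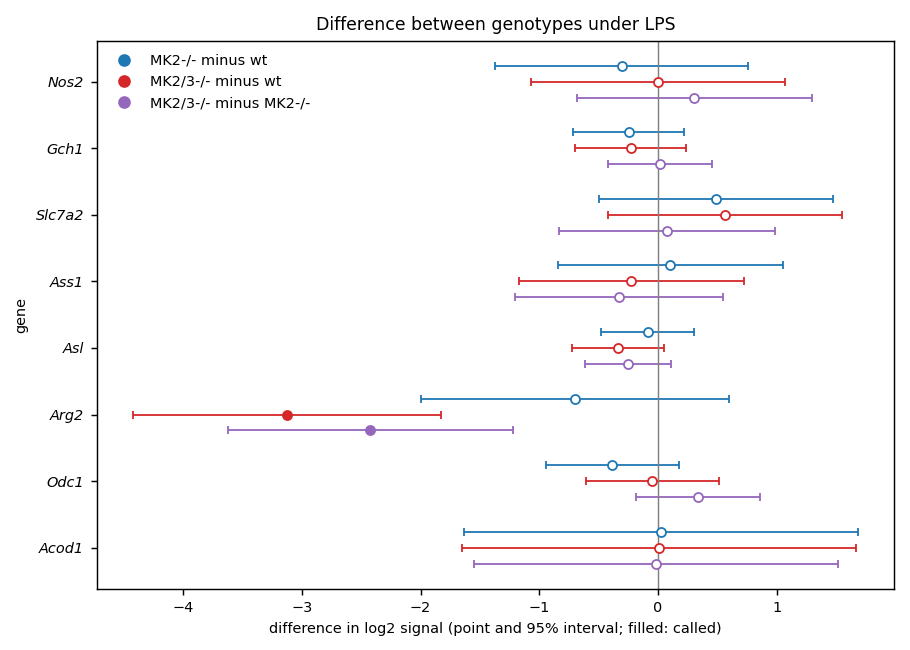
Differences in log2 signal between LPS-treated genotypes (horizontal axis, point and 95% interval) for the 8 genes, with each colour 1 pair of genotypes and filled points called. Only Arg2 has filled points, at -3.13 and -2.42, and the intervals of the other 7 genes include 0.

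Ornithine decarboxylase, which takes the product of arginase into the polyamines, had a modest rise. Odc1 went from 11.89 ± 0.40 (SD, n = 4) to 12.73 ± 0.08 (SD, n = 3) in wt, from 11.13 ± 0.43 to 12.35 ± 0.26 (SD, n = 4 each) in MK2-/- and from 11.43 ± 0.46 (SD, n = 3) to 12.68 ± 0.31 (SD, n = 4) in MK2/3-/-. LPS-treated and medium-treated arrays of a genotype did not overlap, the nearest being wt arrays at 12.43 in medium and 12.68 under LPS. The rises were 0.85 (SE 0.27, adjusted p 0.0160), 1.22 (SE 0.25, adjusted p 4.45e-04) and 1.25 (SE 0.27, adjusted p 6.87e-04), or 1.80-, 2.33- and 2.38-fold. Without replicate 3 of medium-treated wt the rise in wt was 0.73 (adjusted p 0.0508). The other 2 Odc1 probes gave 1.21 and 1.17 in wt, 1.28 and 1.44 in MK2-/- and 1.69 and 1.91 in MK2/3-/-, all called.

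**Figure D4:**
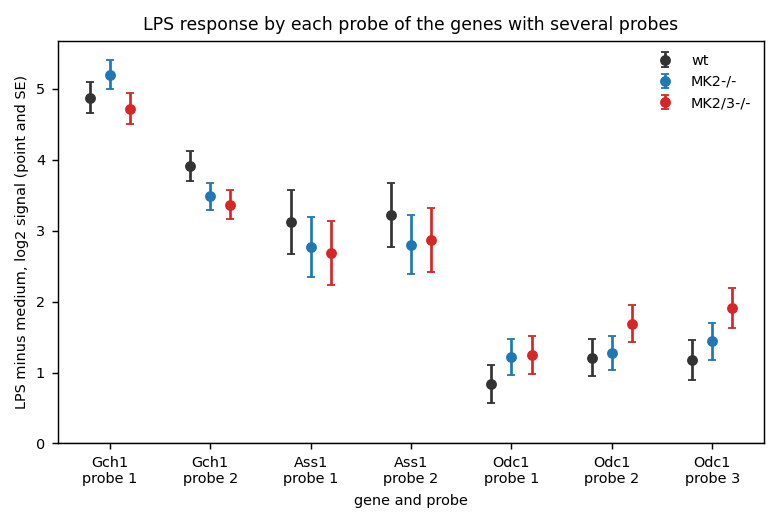
LPS response (vertical axis, LPS minus medium in log2 signal, point and SE) by each probe of Gch1, Ass1 and Odc1, the genes with more than 1 probe, in the 3 genotypes. All 7 probes rose in all genotypes; the Gch1 probes differ most in size (4.88 and 3.91 in wt).

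Acod1, the itaconate enzyme, had 1 probe printed in 10 spots. In medium its log2 signal was 10.55, 9.90, 11.54 and 14.69 in wt, 11.24, 11.12, 9.27 and 10.12 in MK2-/-, and 12.27, 10.27 and 9.78 in MK2/3-/-. Under LPS it was 18.53, 18.53 and 18.57 in wt, 18.60, 18.52, 18.59 and 18.57 in MK2-/-, and 18.58, 18.43, 18.59 and 18.60 in MK2/3-/-. The groups in medium spread widely, with replicate 4 of wt far above the others, while the LPS-treated arrays were nearly equal. Acod1 rose by 6.87 (SE 0.79, adjusted p 1.23e-06) in wt, by 8.13 (SE 0.73, adjusted p 2.72e-08) in MK2-/- and by 7.78 (SE 0.79, adjusted p 1.41e-07) in MK2/3-/-, or 117-, 280- and 219-fold. Without replicate 4 of medium-treated wt the rise in wt was 7.88. On the LPS-treated arrays this probe ranked between 1 and 16 by signal among 55681. Quantile normalisation, done on single spots before they were averaged, gives each rank the same value on every array, which narrows the spread there. Scaled to the 75th percentile instead, its log2 signal under LPS averaged 18.97 (SD 0.42, n = 3) for wt, 18.95 (SD 0.24, n = 4) for MK2-/- and 19.00 (SD 0.07, n = 4) for MK2/3-/-. No spot was marked as saturated.

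Between LPS-treated genotypes, none of the 8 genes was called for MK2-/- against wt (11.6% of all genes), and 1 each, Arg2, for MK2/3-/- against wt (23.6%, with 9.61% higher and 14% lower) and against MK2-/- (13.5%, with 7.74% higher and 5.8% lower). Arg2 was among the lower ones in both. With 75th percentile scaling Asl was also called lower in MK2/3-/- than in wt, at -0.62 (limma, adjusted p 0.0171). For the other 7 genes the differences from wt ranged from -0.39 to 0.49 in MK2-/- and from -0.34 to 0.56 in MK2/3-/-. The narrowest intervals were those of Asl, -0.48 to 0.30 in MK2-/- and -0.73 to 0.05 in MK2/3-/-, and of Gch1, -0.72 to 0.22 and -0.70 to 0.24. For Nos2 the difference from wt was -0.31 (95% interval -1.37 to 0.76) in MK2-/- and 0.00 (-1.07 to 1.07) in MK2/3-/-. For Acod1 it was 0.03 (-1.63 to 1.69) and 0.01 (-1.65 to 1.67), where the width comes from the spread shared with the medium-treated arrays. These intervals bound the differences between the groups, in which genotype and slide cannot be told apart, and do not show that the genotypes are equal. For Acod1, quantile normalisation at the top ranks also limits how far the groups can differ. Slc7a2 under LPS was the member with the largest positive difference, 0.49 (95% interval -0.50 to 1.47) in MK2-/- and 0.56 (-0.42 to 1.55) in MK2/3-/-, with adjusted p 0.516 and 0.409.

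In medium none of the 8 genes was called, against 8.82% of all genes for MK2-/- against wt, 2.02% for MK2/3-/- against wt and 2.82% for MK2/3-/- against MK2-/-. Signals of 7 of the 8 genes were lower in medium-treated MK2-/- than in wt (median difference -0.61). In MK2/3-/- likewise only 1 of the 8 was higher than in wt (median -0.48), and both comparisons share the wt arrays. In MK2-/- Nos2 differed from wt by -1.34 (SE 0.47, adjusted p 0.0809), Odc1 by -0.76 (SE 0.25, adjusted p 0.0627) and Gch1 by -0.57 (SE 0.21, adjusted p 0.0908). Leaving out the high wt array, replicate 4, brought Nos2 to -0.64 and Gch1 to -0.39. The call for MK2-/- depended on the scaling, since Odc1 at -0.87 (adjusted p 0.0210) and Gch1 at -0.71 (adjusted p 0.0289) passed with the 75th percentile.

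Whether the genotypes differed in how strongly they responded was tested as an interaction, and 0 of the 8 genes were called. Of all genes, 0 were called for MK2-/- against wt (limma, 1685 at an unadjusted p below 0.05), 0.679% for MK2/3-/- against wt and 0.067% for MK2/3-/- against MK2-/-. The differences for the 8 genes ranged from -0.35 to 1.26, from -1.43 to 1.07 and from -1.29 to 0.03. Nos2 responded by 1.04 (95% interval -0.42 to 2.49) more in MK2-/- than in wt and Acod1 by 1.26 (SE 1.08, adjusted p 0.828) more, and without replicate 4 of medium-treated wt these values were 0.33 and 0.25. The comparisons share their control arrays, so their values are not independent.

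Across the wider pathways, 43 of 47 listed genes were tested. In wt 4 were called higher and 15 lower with LPS (44.2%), in MK2-/- 4 and 19 (53.5%), and in MK2/3-/- 3 and 21 (55.8%), beside 42.1%, 44.6% and 48.2% of all genes. Their median difference was -0.28, -0.44 and -0.55. In an alternative chosen after seeing the data, 75th percentile scaling, the counts were 8 and 6, 7 and 10, and 6 and 9. Of all 22384 genes, 10531, 9956 and 10606 were called there. Of the pathway genes called in the main setting, 3, 4 and 6 turned sign, among them Cs and Sdha in wt, so that the excess of lower calls depends on the scaling. Without both low-Y arrays 4 were called higher and 15 lower in MK2-/-, with 19 of the 23 calls kept and those of Ddah2, Cs, Sdha and Sdhd lost.

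The other genes of arginine supply and uptake moved in both directions, with 2, 3 and 2 of 5 called higher and 1 lower in wt, MK2-/- and MK2/3-/-, beside 18.6%, 17.5% and 20.2% of all genes higher and 23.5%, 27.1% and 27.9% lower. Slc7a1, a second cationic amino acid transporter, rose by 2.25 (SE 0.58, adjusted p 0.00416) in wt, 3.33 in MK2-/- and 2.06 in MK2/3-/-, each called. Slc7a7, a light chain of an arginine and leucine exchanger, rose by 2.40 (SE 0.33, adjusted p 9.45e-06), 2.41 and 1.83. Slc7a6, the related light chain, fell by 2.38 (SE 0.43, adjusted p 1.98e-04) in wt, by 2.20 in MK2-/- and by 4.40 in MK2/3-/-, where only 1 of 4 LPS-treated arrays was well above background. Arg1, the cytosolic arginase, differed between LPS and medium by 0.21, -0.14 and -0.24, none called, and was well above background on 3 of 3 LPS-treated wt, 2 of 4 MK2-/- and 1 of 4 MK2/3-/- arrays.

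Of 5 other genes of the tetrahydrobiopterin list, 0 were called higher with LPS in wt, MK2-/- or MK2/3-/-, and 2, 3 and 3 lower, among them Spr, which makes the last step of the synthesis, at -1.19, -1.99 and -2.04. Of all genes 23.5%, 27.1% and 27.9% were lower, and Qdpr lost its call in both mutants with 75th percentile scaling (-0.45 in each, adjusted p 0.247 and 0.284). Of the other synthases, Nos3 was called in wt at 1.34, against 0.55 and 0.22 in the mutants, and Nos1 in none. Of the 16 genes of citrate and itaconate handling, 1, 0 and 1 were called higher and 6, 10 and 11 lower, Idh1, the cytosolic isocitrate dehydrogenase, by -2.46 (SE 0.29, adjusted p 1.37e-06) in wt, -3.26 in MK2-/- and -3.52 in MK2/3-/-.

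Under LPS, 0 of the 43 genes were called for MK2-/- against wt, 1 higher and 11 lower (27.9%) for MK2/3-/- against wt and 1 and 3 (9.3%) for MK2/3-/- against MK2-/-. Of all genes 11.6%, 23.6% and 13.5% were called, so without regard to direction these shares lie below or near the background. By direction, 9.61% of all genes were higher and 14% lower for MK2/3-/- against wt, and 7.74% and 5.8% against MK2-/-. The 11 lower of 43 against wt are thus a larger share than among all genes, and the 1 higher a smaller one. No test of the set was run. Lower in MK2/3-/- than in wt were Aldh18a1, which makes a precursor of proline and ornithine, by -2.80 (SE 0.63, adjusted p 0.00399), Slc7a6 by -2.61 (SE 0.43, adjusted p 4.9e-04), Arg1 by -2.45 (SE 0.63, adjusted p 0.00952) and the spermidine synthase Srm by -2.37 (SE 0.57, adjusted p 0.00635). The polyamine oxidase Paox differed by -1.42, Clybl by -1.68, Idh1 by -1.15, Idh3a by -1.05, Spr by -0.97, Slc7a7 by -0.94 and Nosip by -0.89. Higher was Pts, the second enzyme of tetrahydrobiopterin synthesis, by 0.76 (SE 0.25, adjusted p 0.0356). Against MK2-/-, Nos1 at -1.81, Slc7a6 at -1.49 and Slc3a2 at -0.83 were lower and Aco1 at 1.48 higher. On the LPS-treated MK2/3-/- arrays Slc7a6, Arg1 and Nos1 were each well above background on 1 of 4, so the sizes of their differences are uncertain. With 75th percentile scaling 1 gene was called higher and 16 lower for MK2/3-/- against wt. Of all 22384 genes 8196 were called there, beside 5281 in the main setting. That scaling took the calls of Arg1 (-1.57, adjusted p 0.0790), Pts (0.56, adjusted p 0.119) and Idh1 (-0.66, adjusted p 0.0670). Against MK2-/- it took the calls of Slc7a6 (-1.18, adjusted p 0.0533) and Nos1 (-1.68, adjusted p 0.0802), and with normexp background correction Slc7a6 had -0.27 (adjusted p 0.361). For MK2-/- against wt the 0 genes called became 7 lower with 75th percentile scaling, 3 without both low-Y arrays, 2 with normexp and 1 with the authors' table. Of all 22384 genes, 4753 were called in that comparison with 75th percentile scaling, beside 2592 in the main setting. Slc7a7 against wt lost its call without both low-Y arrays (adjusted p 0.0599).

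**Figure D5:**
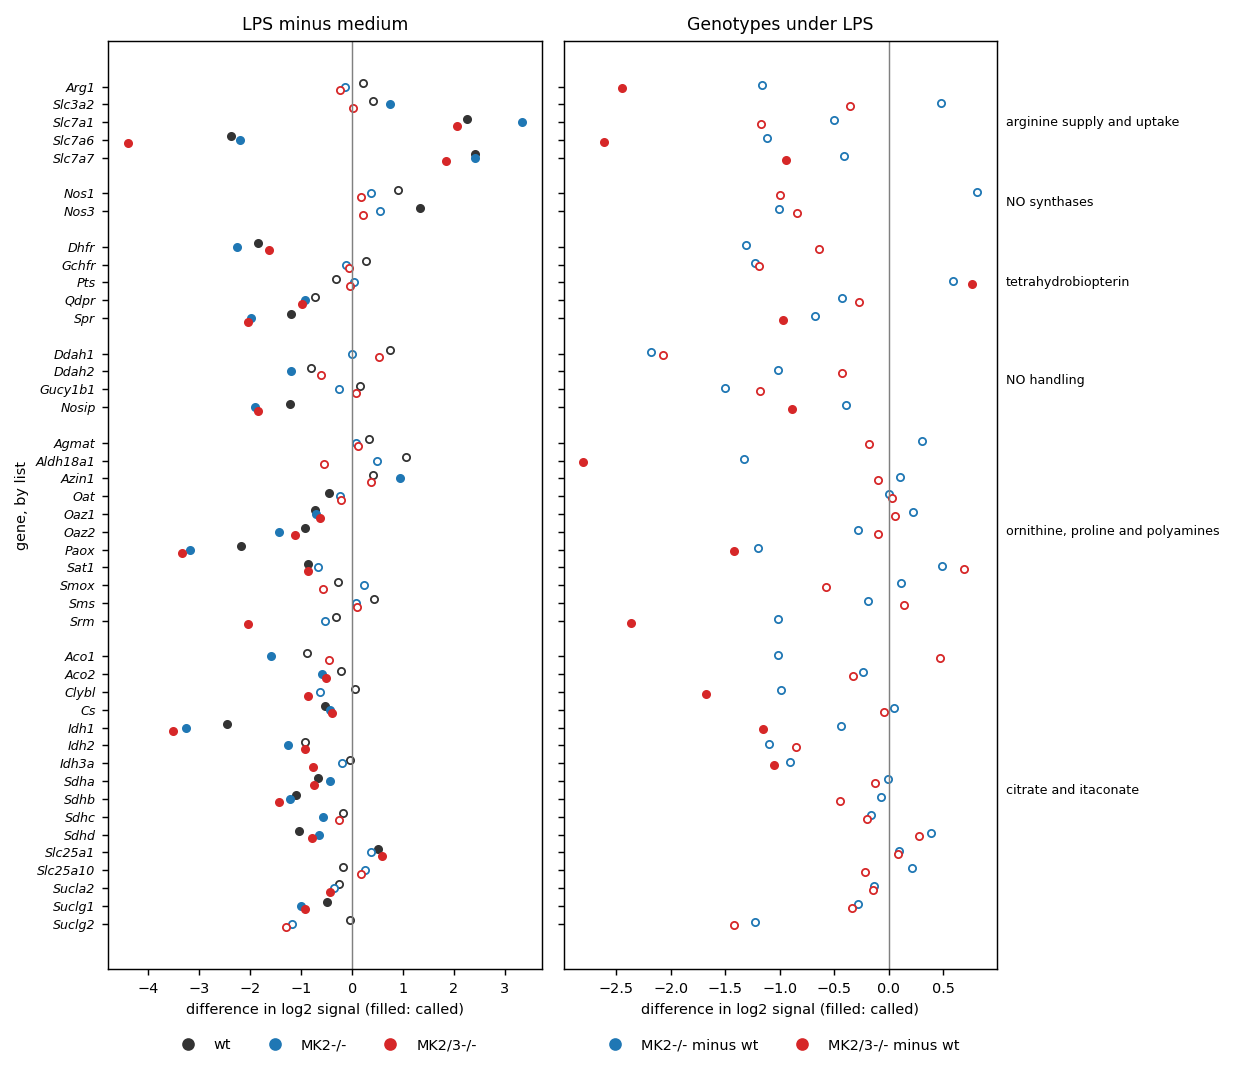
Differences in log2 signal (horizontal axes) of the 43 other pathway genes, one per line and grouped by list, LPS minus medium in each genotype on the left and LPS-treated mutants minus wt on the right; filled points were called. Slc7a1 and Slc7a7 rose while most called genes were lower, a split that 75th percentile scaling changes (8 higher and 6 lower in wt). At that scaling 10531 of all 22384 genes were called in wt. Between MK2/3-/- and wt, 11 of the 12 called differences are negative, beside 14% of all genes called lower and 9.61% higher.

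Over the 22 arrays, the genes whose signals ran most like that of Nos2 were Cd40 (Pearson r 0.997), Socs3 (0.994), Dusp2 (0.994), Ccl12 (0.993) and Tnfaip3 (0.992), and those most like Acod1 were Il1b (0.995), Socs3, Gbp2, Gbp5 and Isg15 (0.994 each). Among the 8 genes, Nos2 had r of 0.988 with Acod1, 0.985 with Gch1, 0.976 with Slc7a2, 0.895 with Ass1, 0.831 with Odc1 and -0.863 with Asl, and 0.562 with Arg2. Each value reflects chiefly the contrast of 11 LPS-treated with 11 medium-treated arrays, which all these genes share.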

How the data were processed

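The deposited files hold spot intensities from Agilent Feature Extraction 11.0.1.1 for 22 arrays, and the authors' background-corrected processed signal of each spot (intensity) was the starting point. A table of log2 values that the authors deposited for the same arrays (r 0.993 to 0.999 with the values used here) served as an alternative. Flagged outlier spots were left out, log2 signals of the single spots were quantile normalised over the 22 arrays, and the spots of a probe were then averaged. Probes with an NCBI accession that were well above background on 3 or more arrays were kept (28103), named through RefSeq (27509 of 29150 RefSeq probes), and the brightest represented each of 22384 genes. Group means of the 6 groups were fitted with limma 3.58.1 in R 4.3.3, with Benjamini-Hochberg adjustment over all genes, 12 comparisons and intervals at 95%. The script was tested on simulated data. The members and the gene lists were chosen with earlier results of these data known. All 8 members were named, and of the other pathway genes the 4 with the largest LPS change in wt and those called between LPS-treated genotypes; Nos3, Cs and Sdha were named after their values were seen.

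Arrays had a median processed signal between 32.7 and 108, and the share of probes well above background from 61.1% to 82.7%; the number of arrays limits the precision. The closest replicates differed by a median of 0.246 (log2), so none was taken as a duplicate. P-values measure the spread between these samples. Same-numbered samples did not meet the condition set for pairing, with 7 of 10 pairs correlated above 0.1. Of pairs that shared neither the number nor the letter in the array name, 3 of 27 were above 0.1. Pairs with the same letter were above 0.1 in 7 of 10, and all 10 shared the animal age, as did 8 of 10 same-numbered pairs. Both low-Y arrays had the same number, letter and age (r -0.0859). Shared animals are therefore not excluded, and the main tests used no pairing. Alternatives were other scalings and filters, normexp on the median signal with an offset of 50 (the mean signal was not used here), array weights, the methods' t-test, blocks, and leaving out arrays.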

Additional observations from a re-analysis of the deposited data

Results flagged for a closer look

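In 48 groups of 4 arrays, over the 12 probes, the gap from the outermost array to its nearest neighbour was divided by the range of all 4. By this criterion of Dixon an array stood apart in 5 groups, and chance gives about 1 in 20 groups. For Arg2, replicate 2 of LPS-treated MK2-/- read 9.67, above 7.71 to 8.01 on the other 3. Without it the difference of MK2/3-/- from MK2-/- under LPS was -1.98 (limma, adjusted p 0.0386). For Slc7a2, replicate 1 of LPS-treated MK2-/- read 12.11, below 13.09 to 13.21. For Nos2, replicate 2 of medium-treated MK2-/- read 8.57, above 8.03 to 8.11. The third Odc1 probe read 6.91 on the same array, below 7.67 to 7.74. For Acod1, replicate 2 of LPS-treated MK2/3-/- read 18.43, below 18.58 to 18.60. Replicate 4 of medium-treated wt, high for Nos2, Gch1, Slc7a2 and Acod1, did not pass the criterion for any of them.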

How the results depend on the processing

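Over 22 settings that left out 1 array and 15 others, 3402 of 3504 values for the 96 single-gene results kept their direction and their side of the threshold, 10 gained a call, 3 lost one and 0 called values reversed; 89 changed sign while called in neither setting, with a size of at most 0.415. For MK2/3-/- against wt under LPS, where 1 gene was called, 75th percentile scaling called 2 (Asl in addition, at -0.62, adjusted p 0.0171), the methods' t-test 0 once adjusted by Benjamini-Hochberg and 3 unadjusted. For MK2/3-/- against MK2-/- under LPS that adjusted t-test called 0 in place of 1. Arg2 then had -3.13 (adjusted p 0.0924) and -2.42 (adjusted p 0.113); the unadjusted t-test called 1 gene, Nos2, for MK2/3-/- against MK2-/- in medium, in place of 0. For MK2-/- against wt in medium, where 0 were called, 75th percentile scaling called 2, array weights 1, Nos2 at -1.73 (adjusted p 0.0241), the unadjusted t-test 1, and leaving out 1 array 0 to 1. That 1 was Nos2 without wt medium replicate 2 (-1.71, adjusted p 0.0393) or Odc1 without MK2-/- medium replicate 4 (-0.93, adjusted p 0.0316). At 75th percentile scaling, 8196 of all 22384 genes were called for MK2/3-/- against wt under LPS and 4899 for MK2-/- against wt in medium. The cause of these changes was not tested.

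With the replicate number as a block (correlation 0.117) no count of called genes changed, and Arg2 in MK2/3-/- under LPS differed by -3.15 (adjusted p 0.00176) from wt and by -2.42 (adjusted p 0.00968) from MK2-/-. Same-numbered samples correlated from -0.0859 to 0.362, above 0.1 in 7 of 10 pairs, compared with 3 of 27 pairs that shared neither number nor letter. With the letter in the array names as the block (0.144) the values were -3.11 and -2.42. The t-test gives no value for the differences between LPS responses. Genotype and slide cannot be told apart, and 3 or 4 arrays per group left wide intervals for Arg2, Nos2 and Acod1.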
